A study of Mus musculus with 27 samples.

Results

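Foxo3, Txnip, Ccng2, Ddit4 and Gadd45b were followed in mouse pancreatic islets through switching on, sustaining and switching off the oncogene Myc. Their probe sets were taken by 1 rule, that the array's annotation gives a probe set a single gene symbol and that this symbol is 1 of these 5. The rule found 7 of the 12488 probe sets on the array, with 1 for Foxo3, 2 for Txnip, 1 for Ccng2, 1 for Ddit4 and 2 for Gadd45b, and each was kept apart. The 5 genes were picked with earlier results of the same arrays known. Their levels and differences are therefore given as a description with errors and no p-value. Where they are counted past a threshold, the count stands beside the share of all probe sets and nothing is read from it. Adjusted p-values are given only for other genes of their pathways, in lists also written with earlier results of these arrays known. Those p-values describe these arrays and are not independent tests.

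The islets came from mice that carry MycER, a fusion of Myc to an estrogen receptor domain that is active only while tamoxifen is bound, together with BclXL, a blocker of apoptosis. Both transgenes are driven by an insulin promoter and are carried by all 9 groups, the untreated one included. Untreated mice stand for time 0, and other mice were taken 2, 4, 8 or 24 h after an injection of 4-hydroxytamoxifen. A further group had tamoxifen each day for 21 days, and the last groups were taken 2, 4 or 6 days after a 21 day course had stopped. The sample titles name 4-hydroxytamoxifen for the 21 day group as well. There were 3 arrays per group and 27 in all. The labels used here name no age or strain, no vehicle injection and no mice without MycER. They number the samples of a group without saying that each came from its own mouse, so every error and p-value here measures only the spread between those samples.

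FoxO factors such as Foxo3 switch on genes for cell cycle arrest, defence against oxidants and autophagy. Insulin and growth factor signals act through PI3K and Akt, which phosphorylates FoxO proteins and keeps them out of the nucleus, so their activity is set largely at the protein level and an RNA array does not read it. Ccng2, an unconventional cyclin that slows the cycle, is a known FoxO target. Txnip, the thioredoxin-interacting protein, binds thioredoxin, lowers glucose uptake and is one of the most glucose-responsive genes of beta cells. Ddit4, also called Redd1, restrains mTORC1 through the Tsc1 and Tsc2 complex under stress and low oxygen, and Gadd45b is a quickly induced stress gene that acts on the p38 and JNK kinases.

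The upstream sequence is shown for 3 of the genes that were higher after 21 days of drug, and these 3 differ in the motifs they hold. Foxo3 was higher too, and its window is described without its sequence. The windows run from 250 bases before to 50 bases after the annotated start of the gene, in the RefSeq annotation of GRCm38.p6, and are written along the strand of the gene. They lie at chr3:96557707-96558006 on the plus strand for Txnip, at chr10:80929841-80930140 on the plus strand for Gadd45b and at chr5:93267323-93267622 on the plus strand for Ccng2. Capitals mark the matches to 3 motifs that were searched on both strands, which are GTAAACA for forkhead factors, CACGTG for E-box factors, and the E-box-like CACGAG. No 2 of these motifs overlap.
Txnip: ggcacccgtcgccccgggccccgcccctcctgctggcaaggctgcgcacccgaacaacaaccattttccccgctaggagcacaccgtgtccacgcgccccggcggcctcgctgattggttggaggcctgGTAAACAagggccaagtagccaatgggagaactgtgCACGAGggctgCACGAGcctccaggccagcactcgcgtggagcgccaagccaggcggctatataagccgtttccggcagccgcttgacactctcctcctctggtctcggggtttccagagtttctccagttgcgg
Gadd45b: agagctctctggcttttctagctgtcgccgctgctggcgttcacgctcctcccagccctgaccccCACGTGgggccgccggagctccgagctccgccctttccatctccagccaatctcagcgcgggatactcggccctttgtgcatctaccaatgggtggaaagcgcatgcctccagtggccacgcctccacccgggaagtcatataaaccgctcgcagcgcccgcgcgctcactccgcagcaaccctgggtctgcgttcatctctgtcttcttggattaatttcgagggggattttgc
Ccng2: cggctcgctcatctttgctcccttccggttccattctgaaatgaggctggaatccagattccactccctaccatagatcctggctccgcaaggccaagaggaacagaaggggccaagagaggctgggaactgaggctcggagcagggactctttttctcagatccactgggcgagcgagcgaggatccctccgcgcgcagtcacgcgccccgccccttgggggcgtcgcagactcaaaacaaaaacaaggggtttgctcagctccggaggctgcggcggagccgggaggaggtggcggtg

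In the Txnip window GTAAACA began 121 bases before the start, and CACGAG began 85 and again 74 bases before it. The Gadd45b window held CACGTG 185 bases before the start. The windows of Ccng2 and Ddit4 held none of the 3 motifs, and that of Foxo3 held CACGAG on the other strand just after the start, which says nothing of sites elsewhere in these genes. GTAAACA was found in 3.65% of 32851 RefSeq promoter windows of this length, CACGTG in 7.15% and CACGAG in 6.47%. The last motif was chosen from the known Txnip element for glucose-sensing factors. GC content was 65.3% in the Txnip window, 62% in both the Gadd45b and the Ccng2 window, 75% in that of Foxo3 and 69% in that of Ddit4, against a median of 52.7% over all windows. A match of letters is a description and not a measured site.

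RNA was taken by laser capture, amplified in 2 linear rounds and hybridised with biotin label to Affymetrix arrays, and every level below is the deposited log2 value from RMA. Array medians lay between 6.91 and 7.01, and arrays of 1 group correlated at 0.957 to 0.992 over all probe sets. The beta cell genes Ins2 and Iapp read 13.35 to 13.91 and 11.70 to 12.88 over the 27 arrays. The 15 measured beta cell markers averaged 9.80 at 21 days and 10.22 in untreated islets, with 6 above 0 in their difference, 0 called higher and 4 called lower. Exocrine RNA was captured too: the 13 measured acinar markers averaged 7.72 after 21 days of drug (range over arrays 7.32 to 8.02), against 9.44 in untreated islets (8.18 to 11.26), and 12.20 at 24 h. The 11 stromal markers averaged 8.24 at 21 days and 7.88 in untreated islets, with 9 of 11 higher, a median difference of 0.40 and 0 past the threshold, and against 24 h 10 of 11 were higher, 2 of them past it. Their part in the members' values was not tested. Leukocyte markers, 33 measured, averaged 7.35 at 21 days and 7.60 in untreated islets, and 5 arrays lay over 0.5 above the mean of all arrays. Of these, 2 belonged to the 2 h group (replicates 1 and 3) and the others to 8 h (replicate 3), to 2 days off (replicate 2) and to 6 days off (replicate 1). The Gapdh control, read near both ends of its transcript, had a 3' excess of 4.83 ± 0.08 at 21 days, of 3.54 ± 0.65, 3.83 ± 0.32 and 3.92 ± 0.47 at 2, 4 and 6 days off, and of 4.75 ± 1.02 in untreated islets (log2, SD, n = 3). At 24 h it was 3.78 ± 0.11, with a highest array of 3.90 where the lowest at 21 days was 4.77. A second control, actin, went the other way on average. Its 3' excess was 2.39 ± 0.35 at 21 days and 2.21 ± 0.14 in untreated islets (log2, SD, n = 3). At 2, 4 and 6 days off it was 2.68 ± 0.31, 2.61 ± 0.31 and 2.85 ± 0.23, and at 24 h 2.70 ± 0.24. In such bulk samples, fewer cells of a type and less RNA per cell cannot be told apart.

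Foxo3 (probe set 92958_at, gene at chr10:42181845-42276695 on the minus strand of GRCm38.p6) stood at its highest level of the series after 21 days of drug. It read 9.23, 9.10 and 9.20 there, against 7.31, 7.62 and 7.80 in untreated islets. All 3 treated arrays lay more than 1 log2 unit above the highest untreated array, a difference of 1.60 ± 0.17 (SE), or 3.03-fold. With drug withdrawn, the level was 8.82, 8.01 and 8.38 at 2 days, 8.59, 8.62 and 8.34 at 4 days and 8.25, 8.22 and 8.42 at 6 days. Each of these 9 arrays lay below all 3 arrays of the 21 day group and above all 3 untreated arrays, so the level after withdrawal was intermediate. The differences from 21 days were -0.77, -0.66 and -0.88 ± 0.17 at 2, 4 and 6 days off, and those from untreated islets were 0.83, 0.94 and 0.72 ± 0.17.

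In the first day the Foxo3 level moved little beside this. It was 7.98, 8.11 and 8.02 at 2 h, 7.70, 8.08 and 8.09 at 4 h, 7.62, 7.93 and 7.58 at 8 h and 7.65, 8.01 and 8.23 at 24 h. Only the 2 h arrays lay wholly above the untreated ones, with a difference of 0.46 ± 0.17, and the other 3 times overlapped with them. At 21 days Foxo3 was 1.21 ± 0.17 above 24 h without overlap. With the acinar and leukocyte marker levels as covariates, the difference from untreated was 1.39 ± 0.15 and that from 24 h was 0.69 ± 0.22, so the value against 24 h moved by more than 1.5 times, beside acinar markers of which all 13 fell between these groups. In the order of group means, 21 days came first and stood apart from the next, the 3 withdrawal groups followed with overlapping ranges, and then 2 h, 24 h, 4 h, 8 h and untreated, each of which overlapped with its neighbour.

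Ccng2 (98478_at, gene at chr5:93267573-93276231 on the plus strand) was likewise high only under and after sustained drug among the 9 groups. Its values were 7.66, 8.02 and 7.53 after 21 days, against 5.89, 5.86 and 6.16 in untreated islets. The groups were separated by over 1 log2 unit, with a difference of 1.77 ± 0.27. Within the first day the values were 5.92, 5.59 and 6.14 at 2 h, 5.93, 5.74 and 5.70 at 4 h, 6.39, 5.29 and 6.38 at 8 h and 6.23, 6.22 and 6.29 at 24 h. Of these, the 24 h arrays alone lay wholly above the untreated ones, by 0.28 ± 0.27, a difference no larger than about its own error. The untreated and first-day levels were within the range of the array's 15 bacterial control probe sets, whose means ran from 3.58 to 7.14. The upper end of that range is set by 1 control, with the next at 5.68 and the median at 3.97. By that upper end the untreated and first-day levels were not clearly above unspecific signal, and no fold is given for Ccng2.

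After withdrawal Ccng2 stayed well above its untreated level. It read 7.00, 7.33 and 7.39 at 2 days, 7.24, 6.76 and 7.33 at 4 days and 7.80, 7.05 and 6.56 at 6 days. All 9 arrays exceeded the highest untreated array, and the differences from untreated were 1.27, 1.14 and 1.17 ± 0.27. Against 21 days the differences were -0.50, -0.63 and -0.60 ± 0.27. The arrays at 2 and 4 days off lay below those of 21 days, and the 6 day arrays, whose spread of 0.62 (SD) was among the widest of this probe set, overlapped with them. The 6 day difference from 21 days was -0.93 without 6 day replicate 1 and -0.31 without 6 day replicate 3.

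Txnip (gene at chr3:96557957-96561857 on the plus strand) was read by 2 probe sets that did not behave alike. The brighter, 160547_s_at, read 9.90, 9.78 and 9.95 after 21 days, against 8.23, 8.50 and 8.78 in untreated islets. All 3 treated arrays were above, by 1.37 ± 0.20 or 2.59-fold. The level was 9.30, 8.96 and 9.33 at 2 days off, 8.81, 9.06 and 9.33 at 4 days and 8.80, 8.99 and 9.48 at 6 days. Every array after withdrawal lay below the 21 day arrays, by -0.68, -0.81 and -0.79 ± 0.20, and every one lay above the untreated arrays, by 0.69, 0.56 and 0.59 ± 0.20, with the lowest at 8.80 and the highest untreated one at 8.78.

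In the first hours this Txnip probe set read 9.23, 8.96 and 8.56 at 2 h, 8.96, 9.05 and 9.04 at 4 h and 9.25, 8.70 and 8.73 at 8 h, and then 8.35, 8.33 and 8.66 at 24 h. Of these only the 4 h arrays lay wholly above the untreated ones, by 0.51 ± 0.20, and at 24 h the difference was -0.06 ± 0.20. Against 24 h the 21 day level was higher by 1.43 ± 0.20, and by 1.02 ± 0.30 with the acinar and leukocyte marker covariates.

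The second Txnip probe set, 160548_at, spanned a narrower range. It read 7.92, 7.76 and 7.35 after 21 days, against 7.46, 7.20 and 7.25 in untreated islets, which overlap, with a difference of 0.37 ± 0.16. Against 24 h, at 7.25, 7.18 and 7.16, the 21 day arrays were all higher, by 0.48 ± 0.16. After withdrawal the differences from 21 days were -0.27, -0.45 and -0.18 ± 0.16, and those from untreated were 0.11, -0.08 and 0.19 ± 0.16. Over the 27 arrays the 2 Txnip probe sets correlated at r = 0.37, and their deviations from the group means at -0.35. By the maker's naming, the suffix _s marks a probe set whose probes match more than 1 transcript, and where within the gene each probe set lies is not given in the sources used here, so the size of the Txnip difference rests on which probe set is read.

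**Figure D1:**
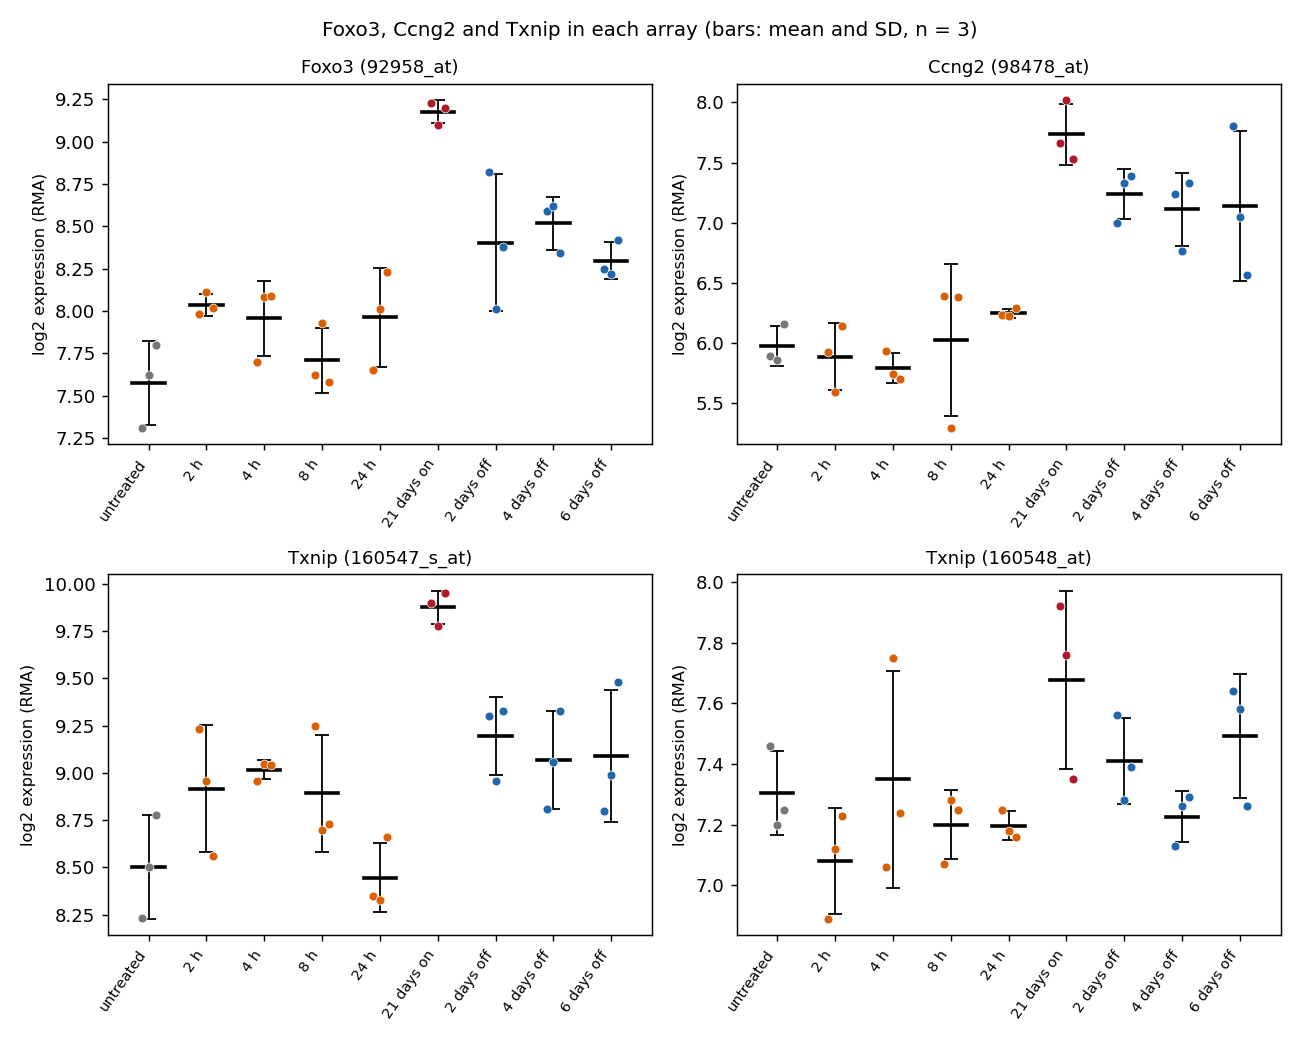
Log2 RMA level of Foxo3, Ccng2 and both Txnip probe sets in each of 27 arrays, by group from untreated through 2, 4, 8 and 24 h and 21 days on to 2, 4 and 6 days off; points are arrays and bars the mean and SD of 3. Foxo3, Ccng2 and Txnip 160547_s_at peak at 21 days on, where all 3 arrays lie above every array of the untreated and first-day groups, and Txnip 160548_at spans a narrower range.

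Gadd45b (gene at chr10:80930091-80932204 on the plus strand) differed from these in its timing, since it was already high at 2 h and did not drop after withdrawal. On probe set 161666_f_at the untreated arrays read 7.46, 6.87 and 7.28, those at 2 h 9.32, 8.65 and 7.84, those at 4 h 7.85, 8.73 and 8.82, those at 8 h 8.31, 8.34 and 7.58 and those at 24 h 8.08, 7.47 and 8.50. At each of these 4 times all 3 arrays lay above the highest untreated one, although at 24 h by as little as 7.47 against 7.46. The differences were 1.40, 1.26, 0.87 and 0.81 ± 0.35 at 2, 4, 8 and 24 h. The highest of the 2 h arrays, replicate 1, was also the array richest in leukocyte markers of the whole series, at 1.25 above the mean of all arrays; without it the 2 h difference was 1.04, and the part of leukocyte RNA in these values was not tested.

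Under sustained drug this Gadd45b probe set read 9.40, 8.75 and 8.89, against 7.46, 6.87 and 7.28 in untreated islets, a difference of 1.81 ± 0.35 or 3.51-fold with no overlap. After the drug was stopped it was 8.88, 9.03 and 8.48 at 2 days, 9.90, 9.47 and 9.32 at 4 days and 8.55, 9.09 and 9.40 at 6 days. The differences from 21 days were -0.22, 0.55 and 0.00 ± 0.35, each with overlapping arrays. Those from untreated were 1.59, 2.36 and 1.81 ± 0.35, and the 5.13-fold at 4 days off made that the group with the highest mean. Leukocyte markers at 4 days off were at 7.18, against 7.35 at 21 days and 7.60 in untreated islets. Stromal markers at 4 days off were at 8.33, with a median difference from untreated of 0.64 and 3 of 11 called higher, and the part of either cell type in the Gadd45b values was not tested.

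Gadd45b probe set 102779_at was also above its untreated level in every later group on average, but its order of groups differed. It read 7.96, 8.07 and 7.75 in untreated islets, 8.99, 8.59 and 8.27 at 2 h, 8.38, 8.67 and 8.70 at 4 h, 8.24, 8.20 and 7.85 at 8 h and 8.37, 8.19 and 8.55 at 24 h. All 3 arrays were above the untreated ones at 2, 4 and 24 h, by 0.69, 0.66 and 0.44 ± 0.19, and the 8 h arrays overlapped. At 21 days it read 8.70, 8.27 and 8.39, which is 0.53 ± 0.19 above untreated and 0.08 ± 0.19 above 24 h. Its mean of 8.45 at 21 days lay below those of 8.62 at 2 h and 8.58 at 4 h, whereas on 161666_f_at the mean at 21 days, 9.01, was above that at each time of the first day. The differences from untreated were 0.62, 0.94 and 0.63 ± 0.19 at 2, 4 and 6 days off, and 4 days off was again the highest group, at 9.17, 8.70 and 8.74. The 2 Gadd45b probe sets correlated at r = 0.87 over the 27 arrays and at 0.85 in their deviations from group means, so arrays of 1 group that were high on the first were high on the second. By the maker's naming, _f marks probes shared with other sequences of a family.

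Ddit4 (103460_at, gene at chr10:59949675-59951770 on the minus strand) ran another way: it was close to its untreated level under drug and lower after withdrawal. Its values were 9.96, 10.21 and 10.09 after 21 days, against 9.88, 9.71 and 10.14 in untreated islets. These overlap, with a difference of 0.18 ± 0.27. The level was 9.25, 9.15 and 8.69 at 2 days off, 9.32, 9.34 and 8.44 at 4 days and 8.60, 9.09 and 8.39 at 6 days. All 9 of these arrays lay below every array of the 21 day group and of the untreated group. Against 21 days the differences were -1.06, -1.05 and -1.39 ± 0.27, and against untreated islets -0.88, -0.88 and -1.22 ± 0.27, so that the level at 6 days off was 2.32-fold below untreated. Without 4 day replicate 3 the 4 day difference from untreated was -0.58.

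In the first day Ddit4 read 9.62, 9.61 and 9.86 at 2 h, 9.28, 9.71 and 9.57 at 4 h, 8.90, 9.95 and 10.16 at 8 h and 10.05, 10.15 and 10.53 at 24 h. Its differences from untreated were -0.21, -0.39, -0.24 and 0.33 ± 0.27, with overlap at each of these times. The withdrawal groups also had the smaller Gapdh 3' excess given above, while their mean actin excess was larger, so the controls disagree. With the Gapdh excess as a covariate, the Ddit4 difference from 21 days was -0.72 at 2 days, -0.79 at 4 days and -1.16 at 6 days off, and that from untreated was -0.57, -0.64 and -1.002.

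**Figure D2:**
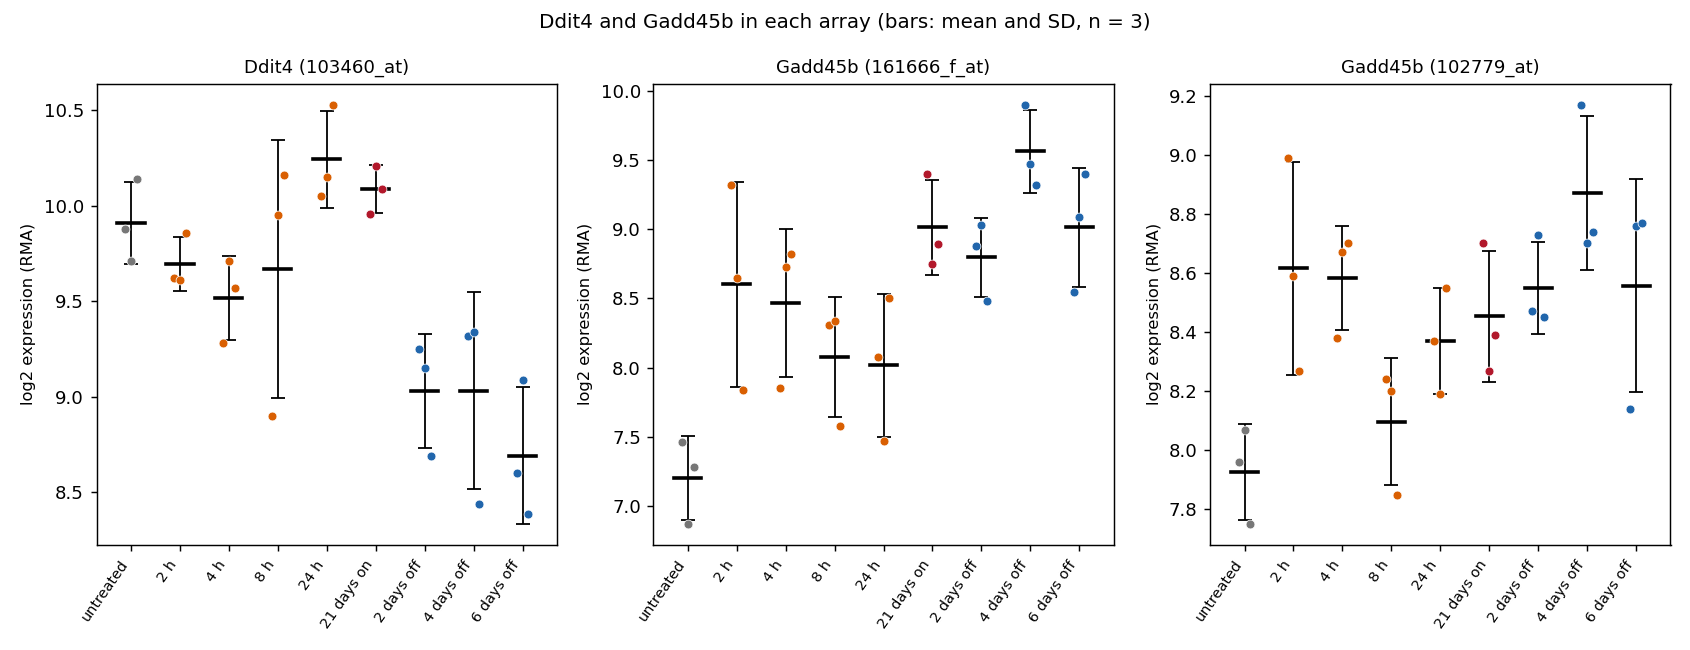
Log2 RMA level of Ddit4 and both Gadd45b probe sets in each of 27 arrays, by group in the order untreated, 2, 4, 8 and 24 h, 21 days on and 2, 4 and 6 days off; points are arrays and bars the mean and SD of 3. Ddit4 lies lower in all 9 arrays after withdrawal than in the untreated and 21 day arrays, and Gadd45b 161666_f_at lies above the untreated arrays in every other group.

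Set side by side, the 7 probe sets had a median difference of 1.37 at 21 days against untreated, where that of all 12422 tested probe sets was 0.04. Of the 7, 5 had all 3 arrays above the untreated ones, where 16.5% of all probe sets had, and 4 passed the limma threshold of an adjusted p under 0.05 upward, where 7.27% of all did. The genes were chosen on such differences, so nothing is read from these counts, here or in the comparisons that follow. Against 24 h, 5 of the 7 were wholly above and 5 passed upward, beside 24.1% and 11.6% of all probe sets. The count that passed was 1 with the acinar and leukocyte marker covariates, 3 with the Gapdh covariate and 3 to 4 on leaving out 1 array.

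After withdrawal the count of members that passed against 21 days was 0, 3 and 2 at 2, 4 and 6 days, all downward, beside 0.00805%, 2.42% and 0.177% of all probe sets. At 4 days these were Foxo3, Txnip 160547_s_at and Ddit4, and at 6 days Foxo3 and Ddit4. The count at 4 days was 0 without 21 day replicate 1 or 2 or without 4 day replicate 1, and 1 without 4 day replicate 2 or 3. The count at 6 days was 0 with the 2 groups alone, with either set of covariates or without the leukocyte-rich arrays, and Foxo3 and Ddit4 were each called there in 7 of 16 alternative analyses. By separation of the arrays, 4, 5 and 3 of the 7 lay wholly below 21 days, beside 15%, 25% and 11% of all probe sets. Against untreated, 5, 5 and 4 passed upward at 2, 4 and 6 days off, beside 9.72%, 11.9% and 4.79% of all, and 1 passed downward at each time, Ddit4, beside 10.9%, 11.8% and 6.93%. In the first day none of the 7 passed the threshold, where 0.394%, 0.797%, 1.7% and 1.38% of all probe sets passed in either direction at 2, 4, 8 and 24 h. In those groups 3, 3, 1 and 3 of the 7 lay wholly above untreated, beside 5.31%, 4.48%, 5.14% and 6.84%. All these comparisons share their untreated or 21 day arrays.

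**Figure D3:**
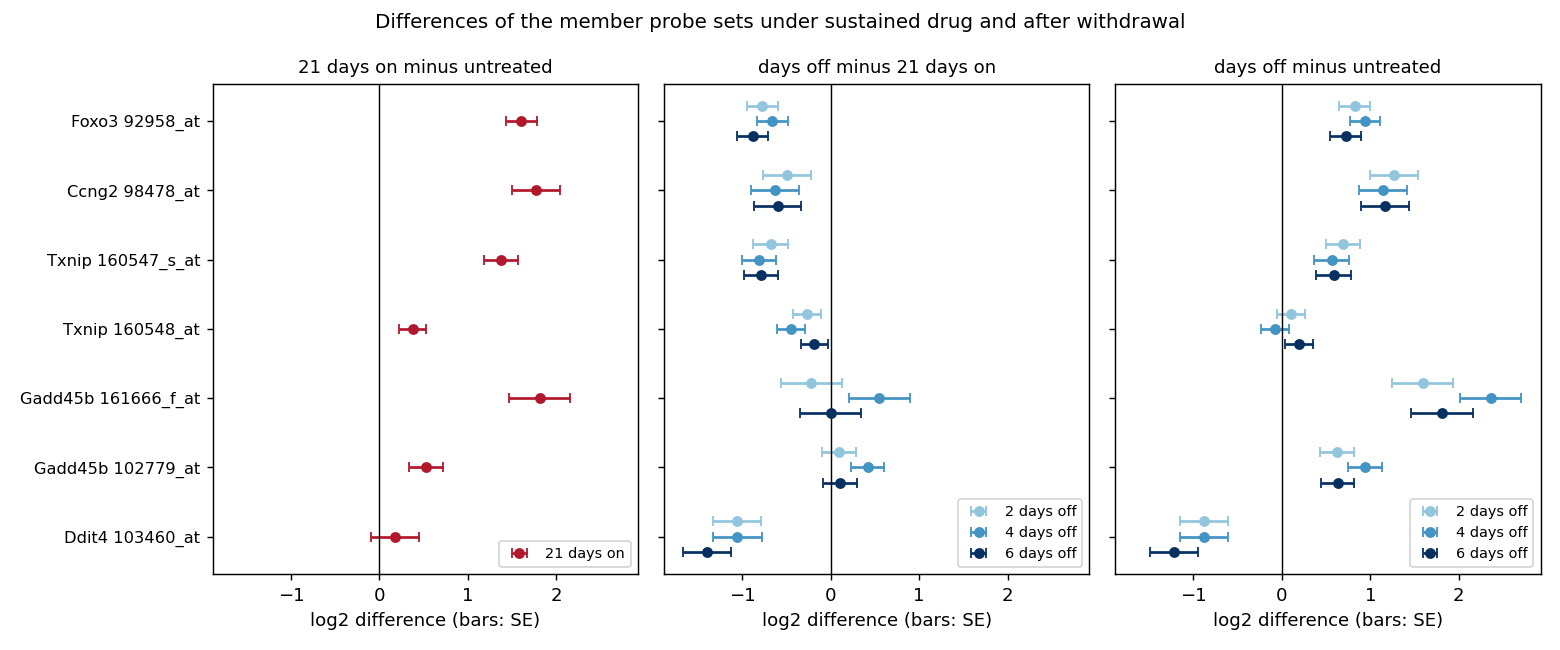
Log2 difference with its SE for each of the 7 probe sets: 21 days on minus untreated at the left, 2, 4 and 6 days off minus 21 days on in the middle, and 2, 4 and 6 days off minus untreated at the right. Foxo3, Ccng2 and Txnip 160547_s_at lie right of 0 at the left, left of 0 in the middle and right of 0 again at the right, Ddit4 lies near 0 at the left and left of 0 elsewhere, and Gadd45b 161666_f_at stays right of 0 against untreated.

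Across the 27 arrays Foxo3 correlated with Txnip 160547_s_at at r = 0.79, with Ccng2 at 0.71 and with Gadd45b 161666_f_at at 0.67, and with Ddit4 at -0.05. The points share 9 groups. In the deviations from group means the same r were 0.32, -0.41, 0.24 and 0.33. The shared course of Foxo3 and Ccng2 therefore lay between the groups and not between arrays of 1 group.

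The wider pathways were read through 6 lists, written from general knowledge with earlier results of these arrays known, with each gene read by its brightest probe set. Of 200 listed genes that are not among the 5, 145 were measured. The lists share some genes, such as Mxi1, Rbl2 and Sesn1, and a shared gene is counted in each of its lists. At 21 days against untreated 21 of the 145 rose and 9 fell, beside 7.95% and 8.46% of 8251 genes, and the median difference was 0.09, where that of all genes was 0.03. The same shares stand beside the 21 day count of each list below, and the lists are not ranked by these counts. Without 21 day replicate 2 the calls in both directions together were 17, against 30 with it. Of 18 calls followed through the alternative analyses, 8 held in all of them. In this paragraph and the following ones, rose and fell mean an adjusted p under 0.05 in limma with Benjamini-Hochberg adjustment over all 12422 probe sets.

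Of 31 measured FoxO factors and targets, 6 rose at 21 days against untreated and 1 fell. Mxi1, an antagonist of Myc that pairs with Max, rose by 1.68 ± 0.24 (8.25 against 6.57, adjusted p = 0.000128). Sesn1, a sestrin that restrains mTORC1, rose by 0.71 ± 0.14, with 8.55, 8.55 and 8.77 against 7.91, 7.87 and 7.97 (adjusted p = 0.00267). Rbl2, a pocket protein of the quiescent state, rose by 0.82 ± 0.20 at a low level, 5.48 against 4.66 (adjusted p = 0.00833). Cited2, a transcription cofactor, rose by 1.19 ± 0.36 (adjusted p = 0.03), a call that 5 of the 6 single-array omissions ended. Foxo4, the other measured FoxO factor, read 9.73 in both groups, a difference of 0.00 ± 0.10, and Cdkn1b, the p27 inhibitor and a textbook FoxO target, differed by 0.01 ± 0.12 at a mean under 5, while its second probe set rose by 0.52 (adjusted p = 0.0114).

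Among 29 measured genes of insulin receptor, PI3K and Akt signalling, 3 rose and 2 fell at 21 days. The 14-3-3 genes Ywhah and Ywhag, whose proteins hold phosphorylated FoxO in the cytoplasm, rose by 1.34 ± 0.29 (adjusted p = 0.00358) and 1.03 ± 0.28 (adjusted p = 0.0184), although the second probe set of Ywhag gave 0.02 (adjusted p = 0.928). Ywhah read 6.88, 7.90 and 8.59 in untreated islets, and its difference was 0.89 without replicate 1, where it kept its call. The Ywhag call was lost without untreated replicate 1 or without 21 day replicate 2. Pik3r2, a PI3K regulatory subunit, rose by 0.55 ± 0.15 (adjusted p = 0.0149), and lost its call without untreated replicate 3 or 21 day replicate 3. The genes that fell had smaller differences than these. Akt1 read 9.13, 9.05 and 9.21 at 21 days, against 9.72, 9.35 and 9.56 in untreated islets. Inppl1 read 9.81, 9.79 and 9.81, against 10.38, 10.10 and 10.44. At 6 days off against untreated Ywhah rose by 1.22, and Inppl1 and Akt1 fell by 0.77 and 0.44 on the log2 scale (adjusted p = 0.00844, 0.000727 and 0.0332). None of these calls held in every alternative analysis.

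In the thioredoxin list, the system that Txnip binds, 3 of 15 measured genes rose at 21 days and 0 fell. Txn1, thioredoxin itself, read 10.53, 10.60 and 9.83, against 8.93, 9.23 and 9.85 in untreated islets. It rose by 0.98 ± 0.24 (adjusted p = 0.00823), although 1 treated array lay just below the highest untreated one, and the call was lost without untreated replicate 1. At 24 h Txn1 was 0.86 ± 0.24 above untreated without a call (adjusted p = 0.0904). Its 21 day level differed from 24 h by 0.12 ± 0.24 (adjusted p = 0.758). Glrx, a glutaredoxin, rose by 0.77 ± 0.19 (adjusted p = 0.0092), and Gsr, glutathione reductase, by 0.52 ± 0.13 (adjusted p = 0.0119); the call of Glrx was lost without 21 day replicate 3 and that of Gsr without 21 day replicate 2. Txnrd1, the cytosolic thioredoxin reductase, differed by -0.21 ± 0.15 (adjusted p = 0.378).

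In the mTORC1 list, where Ddit4 acts, 2 of 22 measured genes rose and 4 fell at 21 days. Tsc2, through which Ddit4 restrains mTORC1, read 9.17, 8.84 and 9.22, against 9.74, 9.65 and 9.65. It fell by 0.60 on the log2 scale, with an SE of 0.13 (adjusted p = 0.00364), while its 2 other probe sets gave -0.15 (adjusted p = 0.357) and -0.55 (adjusted p = 0.038). Vegfa, a target of the low oxygen response, fell by 1.13 on the log2 scale with an SE of 0.27 (adjusted p = 0.00858), a call lost without 21 day replicate 2. Eif4ebp2, a repressor of cap-dependent translation, rose by 0.64 ± 0.15 (adjusted p = 0.00643), and its 2 other probe sets gave 0.04 and -0.02.

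Of 26 measured genes of the Gadd45 and stress list, 1 rose and 1 fell at 21 days. Gadd45g moved opposite to Gadd45b: it read 8.76, 8.24 and 8.79, against 9.97, 9.84 and 9.69 in untreated islets, and fell by 1.24 on the log2 scale with an SE of 0.18 (adjusted p = 0.000142). Gadd45a differed by 0.35 ± 0.17 (adjusted p = 0.186). Atf3, a stress transcription factor, rose by 1.31 ± 0.34 (adjusted p = 0.0127), a call lost without 21 day replicate 2, and its 2 other probe sets gave 0.02 and 0.01.

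In the growth arrest list, 9 of 35 measured genes rose and 2 fell at 21 days, beside 7.95% and 8.46% of all genes. Of these risers, Mxi1 and Rbl2 are also in the FoxO list. Klf10, a TGF-beta induced antiproliferative factor, read 8.50, 8.18 and 8.99, against 6.93, 7.07 and 7.44, and rose by 1.41 ± 0.23 (adjusted p = 0.000421). Its second probe set rose by 1.18 (adjusted p = 0.000513). Ccng1, the p53-driven relative of Ccng2, read 8.18, 8.61 and 8.45, against 5.89, 7.95 and 7.62, where 1 untreated array was far below the others. Its rise of 1.26 ± 0.41 (adjusted p = 0.0427) was 0.63 without that array and lost its call there, as it did without any 1 of the 3 treated arrays. Nupr1, a stress protein that is very abundant in acinar cells, fell by 2.54 on the log2 scale with an SE of 0.59 (adjusted p = 0.00601). All 13 acinar markers were lower in the same comparison, with a median of -2.01 and none past the threshold, and their part in the Nupr1 value was not tested beyond the covariate fit, where its difference was -1.44.

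**Figure D4:**
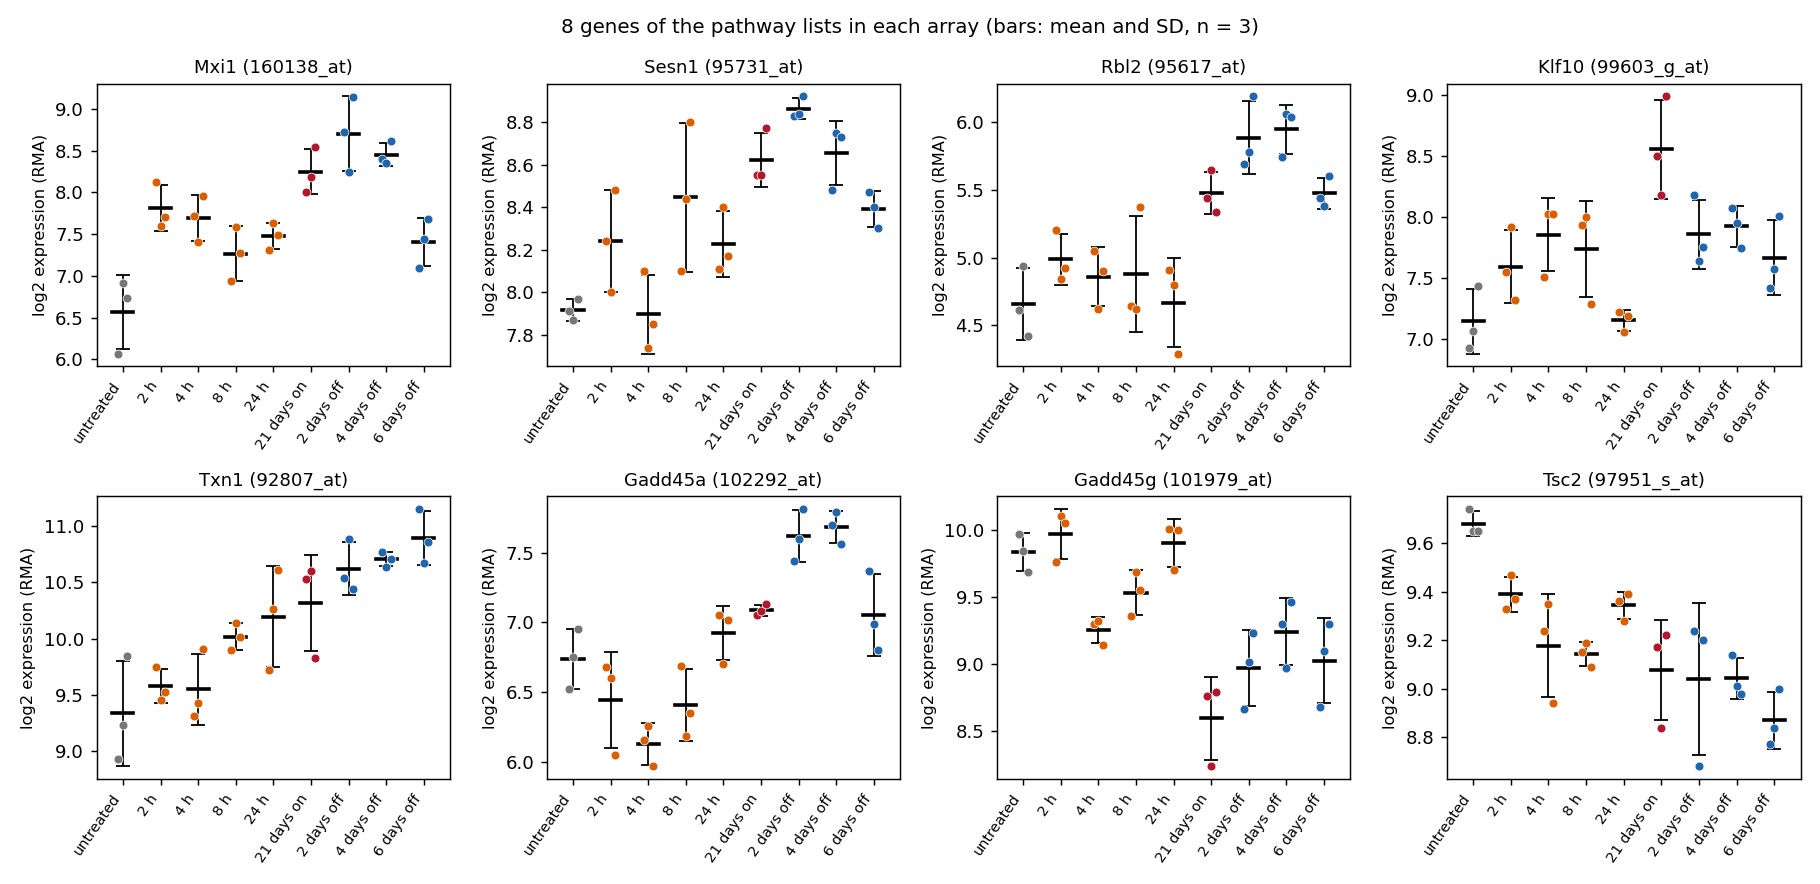
Log2 RMA level of Mxi1, Sesn1, Rbl2, Klf10, Txn1, Gadd45a, Gadd45g and Tsc2 in each of 27 arrays, by group from untreated through 24 h and 21 days on to 6 days off; points are arrays and bars the mean and SD of 3. Klf10 is highest at 21 days on, at a mean of 8.56, Gadd45g and Tsc2 lie below their untreated level there, and Gadd45a is highest at 2 and 4 days off, at means of 7.62 and 7.68.

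After withdrawal few listed genes parted from the 21 day level. Against 21 days, 3 rose and 0 fell at 2 days, 8 rose and 3 fell at 4 days, and 0 rose and 2 fell at 6 days, beside 0.158% and 0.0121%, 4.52% and 2.39%, and 0.121% and 0.218% of 8251 genes. Rraga, a Rag GTPase that brings mTORC1 to the lysosome, read 7.62, 7.88 and 7.76 at 21 days, and rose by 0.90 ± 0.18 at 2 days off (adjusted p = 0.0479) and by 1.06 ± 0.18 at 4 days off (adjusted p = 0.00846). Txnrd2, the mitochondrial thioredoxin reductase, rose by 0.99 ± 0.18 (adjusted p = 0.0334) and 1.03 ± 0.18 (adjusted p = 0.00846) at the same times. At 4 days both calls were lost without replicate 1 of that group, and at 2 days without replicate 2 or 3 of that group or replicate 1 or 2 of the 21 day group.

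At 4 days off against 21 days both other Gadd45 genes passed the threshold. Gadd45a was at 7.70, 7.79 and 7.56, against 7.05, 7.08 and 7.13 at 21 days, and rose by 0.60 ± 0.17 (adjusted p = 0.045). Gadd45g rose by 0.65 ± 0.18 (adjusted p = 0.0399). The call of Gadd45a was lost on leaving out any 1 of the 6 arrays, and that of Gadd45g on leaving out 4 of the 6. The Gadd45b differences in the same comparison were 0.55 ± 0.35 and 0.42 ± 0.19 on its 2 probe sets, and no difference between the 3 genes was tested. Irs2, the insulin receptor substrate and a FoxO target, fell by 0.42 on the log2 scale with an SE of 0.11 (adjusted p = 0.0334), which held on leaving out 1 of the 6 arrays only. At 6 days off Tsc1 and Trib3, the partner of Tsc2 and an Akt-binding pseudokinase, fell by 0.50 and by 0.49 on the log2 scale (adjusted p = 0.0381 for each), and neither call held in most omissions; a second Tsc1 probe set gave -0.17 (adjusted p = 0.615). None of the 15 calls with the largest differences in these 3 comparisons held in every alternative analysis.

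Against untreated islets, of the 145 genes, 26 rose and 15 fell at 2 days off, 28 rose and 17 fell at 4 days, and 12 rose and 13 fell at 6 days, beside 11.7% and 11.5%, 14.1% and 12.3%, and 5.56% and 7.95% of all genes. The median differences of the listed genes were 0.04, -0.02 and 0.03, where those of all genes were -0.02, -0.06 and 0.00. Without untreated replicate 1 the counts in both directions together were 27 at 2 days and 14 at 6 days, against 41 and 25 with it. Mxi1 was still up by 2.13, 1.88 and 0.84 ± 0.24 (adjusted p = 8.43e-06, 2.63e-05 and 0.0253), and Txn1 was up by 1.29, 1.37 and 1.56 ± 0.24 (adjusted p = 0.000741, 0.000405 and 0.000425). Sesn1 rose by 0.95 at 2 days and by 0.74 at 4 days off, and Tsc2 fell by 0.64, 0.64 and 0.81 on the log2 scale at the 3 times (adjusted p = 0.0014, 0.00139 and 0.000609). The other Tsc2 probe sets did not pass at these times, with -0.25, -0.23 and -0.25 on the first of them (adjusted p = 0.0859, 0.109 and 0.118) and -0.05, -0.08 and -0.42 on the other (adjusted p = 0.891, 0.791 and 0.124). Gadd45a rose by 0.88 and 0.94 ± 0.17 at 2 and 4 days off (adjusted p = 0.0011 and 0.000585) and differed by 0.31 at 6 days (adjusted p = 0.261). Gadd45g fell by 0.86, 0.59 and 0.81 on the log2 scale (adjusted p = 0.00172, 0.0195 and 0.00557). Tob1, an antiproliferative protein, rose by 1.49 at 2 days and by 2.23 at 4 days off (adjusted p = 0.00904 and 0.000425), but 1 of its 3 untreated arrays was low, at 5.98 beside 7.32 and 7.40, and its 2 day call was lost without that array or 2 day replicate 3. Its second probe set gave -0.03 and 0.02 at these times (adjusted p = 0.893 and 0.909). The Gadd45g call at 4 days was lost without untreated replicate 1 or 2 or 4 day replicate 2, and the Mxi1 call at 6 days without untreated replicate 1 or 6 day replicate 2 or 3. Of the calls with the largest differences, 12 of 18 at 2 days, 15 of 18 at 4 days and 0 of 17 at 6 days held in every alternative analysis.

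In the first day, of the 145 genes, 2 rose at 2 h, 2 at 4 h, 2 at 8 h and 2 at 24 h, beside 0.412%, 0.57%, 1.15% and 1.37% of all genes, and 3 fell at 8 h, beside 0.764%. On leaving out 1 array the count ran from 1 to 8 at 2 h, with the 8 found without 2 h replicate 3, from 0 to 3 at 4 h and from 1 to 3 at 8 h and at 24 h. Of the calls followed through the alternative analyses, 0 of 2, 0 of 2, 0 of 5 and 0 of 2 held in all of them at 2, 4, 8 and 24 h. Eif4ebp1, the 4E-BP1 repressor of translation that mTORC1 inactivates, rose at each time, by 1.16, 0.95, 1.04 and 0.72 ± 0.17 (adjusted p = 0.00325, 0.00644, 0.00279 and 0.0316), and at 21 days differed from untreated by 0.09 ± 0.17 (adjusted p = 0.78). Its call at 4 h was lost without 4 h replicate 3, and that at 24 h without replicate 2 or 3 of either group. Between 21 days and 24 h it fell by 0.63 on the log2 scale (adjusted p = 0.0109). Mxi1 rose early as well, by 1.24 ± 0.24 at 2 h (adjusted p = 0.0184) and 1.13 ± 0.24 at 4 h (adjusted p = 0.0216), but the 2 h call was lost without untreated replicate 1 or 2 h replicate 1, and the 4 h call without untreated replicate 1, 4 h replicate 1 or 4 h replicate 3.

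The genes whose course over the 27 arrays was most like that of each member were found by Pearson's r among the probe sets above the median level, 3 per member, and are given as a description. For Foxo3 these were Cidea (r = 0.89), Igsf8 (0.86) and Dlk1 (0.85), and for Txnip Klf10 (0.85), Dyrk1a (0.84) and Rhob (0.80). For Ccng2 they were Cox6b2 (0.89), Alas1 (0.87) and Lpp (0.87), for Ddit4 Cdkn2a (0.82), Aaas (0.75) and Defb1 (0.75), and for Gadd45b Cdc42se2, Gnai1 and Lrrc8a (0.77 each). Cidea read 8.94 ± 0.48 after 21 days and 6.34 ± 0.02 in untreated islets, and Dlk1 read 11.31 ± 0.24 and 7.61 ± 0.18 in the same groups (SD, n = 3 each). Gnai1 was highest at 4 days off, as Gadd45b was, at 8.16 ± 0.27, against 7.32 ± 0.18 at 21 days. By Spearman's rho 3 of the 15 genes stayed on the list, and by r over the 9 group means 3 did, so the list depends on the measure.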

How the data were processed

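The deposited log2 values were made by the authors with RMA, as the submitters' processing notes name it. Its version is not given in the sources used here, nor are its settings. They were used without further scaling. The 66 control probe sets were left out and 12422 tested; 10833 of these carry 1 symbol in the platform annotation, 396 several and 1193 none. For the lists, each of 8251 genes was read by its brightest probe set over all arrays. The fit was limma 3.58.1 in R 4.3.3 (lmFit, eBayes) over all 27 arrays, with a mean for each of 9 groups, 18 residual degrees of freedom and a two-sided test, with Benjamini-Hochberg adjustment over 12422 probe sets and a threshold of 0.05. Its code was run on simulated data with independent normal noise. Those data hold no shifts in cell content or RNA quality, so that run does not show how the calls here stand up to such shifts. The 12 comparisons set each group against untreated islets, 21 days against 24 h, and each withdrawal time against 21 days.

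The members, the 6 pathway lists, the 7 marker lists and the motifs were chosen with earlier results of these data known. Named genes are all member probe sets, the 3 called genes of each list with the largest difference in each comparison, 12 further partners whether called or not, and the 3 genes most like each member; not all are named. Precision is set by 3 arrays per group. Samples were not paired by number in the fit. In 0 of the 12 comparisons did all 3 correlations between the deviations of same-numbered arrays pass 0.1 (range -0.26 to 0.36). At 6 days off against untreated they came close, at 0.320, 0.099 and 0.154. Alternatives were other scalings, a filter that drops the dimmest 40% of probe sets, another variance model, array weights, only the 2 groups compared, the replicate number, marker covariates and leaving out each array. The Gapdh covariate and the omission of the 5 leukocyte-rich arrays were added after seeing the data. Promoter sequences came from RefSeq (GRCm38.p6) and matched all 5 genes.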

Additional observations from a re-analysis of the deposited data

How the results depend on the processing

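The 84 member differences kept their sign wherever they had been called, and 1320 of 1344 alternative values lay within 1 SD of the reported ones. Counts moved more, and the cause was not tested. Of the 7 members, array weights called 1 at 2 h, 3, 5 and 4 at 2, 4 and 6 days off against 21 days. Marker covariates called 1 at 2 h, 1 at 21 days against 24 h and 0 at 6 days off against 21 days. The Gapdh covariate called 3 at 21 days against 24 h, 1 and 0 at 4 and 6 days off against 21 days, and 3 at 2 days off against untreated. Quantile normalization called 1 at 2 days off against 21 days. The 2 groups alone called 0 at 6 days off against 21 days and 0 against untreated. Without the leukocyte-rich arrays 2 were called at 4 h and 0 at 6 days off against 21 days.

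Of the 145 list genes, array weights called 5, 3 and 4 at 2, 8 and 24 h, 53 at 21 days against 24 h, 8, 46 and 23 at 2, 4 and 6 days off against 21 days, and 42 at 6 days off against untreated. The 2 groups alone called 0, 0, 0 and 1 at 2, 4, 8 and 24 h, 0 at 2 and 0 at 6 days off against 21 days, and 19 and 0 at 2 and 6 days off against untreated. Marker covariates called 4 and 1 at 2 and 24 h, 4 at 21 days against 24 h, and 0 at 2 and 6 days off against 21 days. The Gapdh covariate called 4 and 1 at 4 and 24 h and 0, 6 and 0 at 2, 4 and 6 days off against 21 days. Median centring called 3 at 8 h, and without the leukocyte-rich arrays 0 were called at 2 and 6 days off against 21 days.

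Leaving out 1 array at a time, the member counts ran from 0 to 2, 0 to 1, 0 to 0 and 0 to 0 at 2, 4, 8 and 24 h, 4 to 5 at 21 days, 3 to 4 against 24 h, 0 to 1, 0 to 4 and 0 to 2 at 2, 4 and 6 days off against 21 days, and 3 to 6, 4 to 6 and 3 to 6 against untreated. The list counts ran from 1 to 8, 0 to 3, 1 to 3 and 1 to 3, 17 to 30, 16 to 26, 0 to 3, 0 to 15 and 0 to 1, and 27 to 39, 31 to 49 and 14 to 23 in the same order. With the replicate number as a block the 21 day counts against untreated were 4 members and 33 list genes, and no count moved by over 1.5 times. The labels do not say what the numbers mean, and shared handling of same-numbered samples was not tested otherwise. Likeness lists shared 3 of 15 genes under each other measure. Signals within the range of the bacterial controls limit small folds, as for Ccng2 before 21 days. Among others, Mxi1 at 6.57 and Gadd45a at 6.74 in untreated islets lay within that range too. So did the untreated levels of Rbl2 at 4.66, Cdkn1b at 4.78, Atf3 at 6.84, Tob1 at 6.90 and Cited2 at 6.98. After withdrawal the Ccng2 arrays at 7.00, 6.76, 7.05 and 6.56 were within it as well.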
